A study of Mus musculus with 160 samples.

Results

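The 10 genes described here encode a glucose transporter, Slc2a1, and enzymes that carry glucose to lactate, Hk1, Hk2, Pfkl, Pfkp, Aldoa, Tpi1, Pgk1, Pgam1 and Ldha. They were chosen by name, and all 10 were found among the 23420 rows of a table of single cells. The 160 cells were sorted from mouse cultures on the C57BL/6 background and fell into 4 groups, induced hemogenic endothelial cells (iHECs, 65 cells) and induced hematopoietic progenitor cells (iHPCs) collected on day 14 (21 cells), day 17 (18 cells) and day 21 (56 cells), that is after 3, 6 and 10 days of maturation. The study's text describes iR9-ESCs, embryonic stem cells with a doxycycline-inducible Runx1-p2a-Hoxa9 cassette at the Rosa26 locus, whereas the labels speak of ESC/iPSC without assigning cells to either. By the study's methods, doxycycline was given during the iHEC culture and throughout maturation, so that every group was under induction. No uninduced group was analysed here, and the levels of Runx1 and Hoxa9 are not reported here.

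The culture and the sort differed between the groups together with the day. The iHECs came from embryoid body cultures and were sorted as CD31+CD41lowCD45-c-kit+CD201high cells. The iHPCs matured on OP9-DL1, mouse stromal feeder cells that present a Notch ligand, and were sorted as CD45+Lin- cells on day 14 and day 17 and as Ter119-CD45+c-kit+CD127+ cells on day 21. Day, medium, feeder and gate therefore cannot be told apart in any comparison. Each library is 1 cell and the labels name no culture or experiment, so each group counted as 1 sample, no test was run, and every SD is the spread between the cells of a group. Ptprc, which encodes CD45, was above 1 TPM in 1 iHEC and in 19 day-14, 17 day-17 and 55 day-21 iHPCs, so that 5 cells went against the gate of their sort at the RNA level. The endothelial gene Cdh5 was above 1 TPM in 63 iHECs and in 0 cells of each iHPC group, where a count of 0 allows up to 14.3% of the day-14, 16.7% of the day-17 and 5.36% of the day-21 cells. Stromal markers, which feeder cells would carry, summed to at most 14.5 TPM in an iHEC and to at most 36.6, 116 and 85.3 TPM in cells of the later days, with Col3a1 and Lum at 0 throughout.

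Glycolysis splits a glucose molecule into pyruvate in the cytosol and yields ATP without oxygen. Slc2a1 (GLUT1) lets glucose into the cell, hexokinases trap it by phosphorylation, and phosphofructokinase makes the committed step. Aldolase and triose phosphate isomerase produce the triose phosphates, Pgk1 makes ATP from them, Pgam1 prepares the next step, and lactate dehydrogenase turns pyruvate into lactate. Many of these genes are known targets of the hypoxia-inducible factors (HIF) and of Myc, and blood stem and progenitor cells are known to rely on glycolysis to a degree that varies with their state.

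Summed over the 10 genes, the share of a cell's transcripts was highest in iHECs and lower in each later group. Expression is given in TPM, a unit that is scaled for gene length and to a fixed total in each cell, so that levels can be compared between genes while read depth is unknown. The 10 genes took 1.27% ± 0.397 (SD, n = 65 cells) of the TPM of iHECs, 0.917% ± 0.136 (n = 21) on day 14, 0.745% ± 0.165 (n = 18) on day 17 and 0.593% ± 0.181 (n = 56) on day 21. The cells overlapped, from 0.422% to 2.13% in iHECs and from 0.178% to 0.907% on day 21. By the same measure, 18 other glycolysis genes, among them Eno1, Pkm and Gapdh, were near level in the first step. They took 0.867% ± 0.336 in iHECs, 0.854% ± 0.291 on day 14, 0.647% ± 0.256 on day 17 and 0.397% ± 0.171 on day 21. The mean of log2(TPM + 1) over the 10 genes was 8.53 ± 0.77, 7.69 ± 0.48, 7.37 ± 0.62 and 6.41 ± 0.90 in the same order, which makes steps of -0.84, -0.32 and -0.96 between consecutive groups.

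In the first step, from iHECs to day 14, the median of the 10 genes was lower and that of all genes past a detection filter higher. A gene counted as tested here, although no significance test was run, if over 30 of the 160 cells had it above 1 TPM, which held for 9674 genes and for all 10 members. The median difference of these 9674 genes was 0.93 on the log2(TPM + 1) scale, day 14 minus iHEC, whereas the median of the 10 genes was -0.68. With a pseudocount of 10 these medians were 0.21 and -0.64. Genes above 1 TPM numbered a median of 4926 per iHEC and 8200 per day-14 cell. The part of this number in the contrast was not tested. With a difference of at least 1 as the rule of size, 4 of the 10 genes were lower on day 14 (Slc2a1, Pfkl, Pfkp and Pgk1) against 11.5% of all tested genes, and 0 of the 10 were higher against 48%. From day 14 to day 17, 0 of the 10 genes were lower by at least 1 against 3.89% of all tested genes, and 0 were higher against 15.5%. From day 17 to day 21, 3 of the 10 genes (Slc2a1, Pfkl and Pfkp) were lower by at least 1, a share below the 38.5% of all tested genes, and 0 were higher against 2.33%. In this last step the median of the 10 genes, -0.48, was closer to 0 than the median of all tested genes, -0.74, except with a pseudocount of 10, where the medians were -0.46 and -0.29. Leaving out the 5 cells that went against their gate kept the counts at 4 and 3 in the first and last step, and made it 1 between day 14 and day 17.

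**Figure D1:**
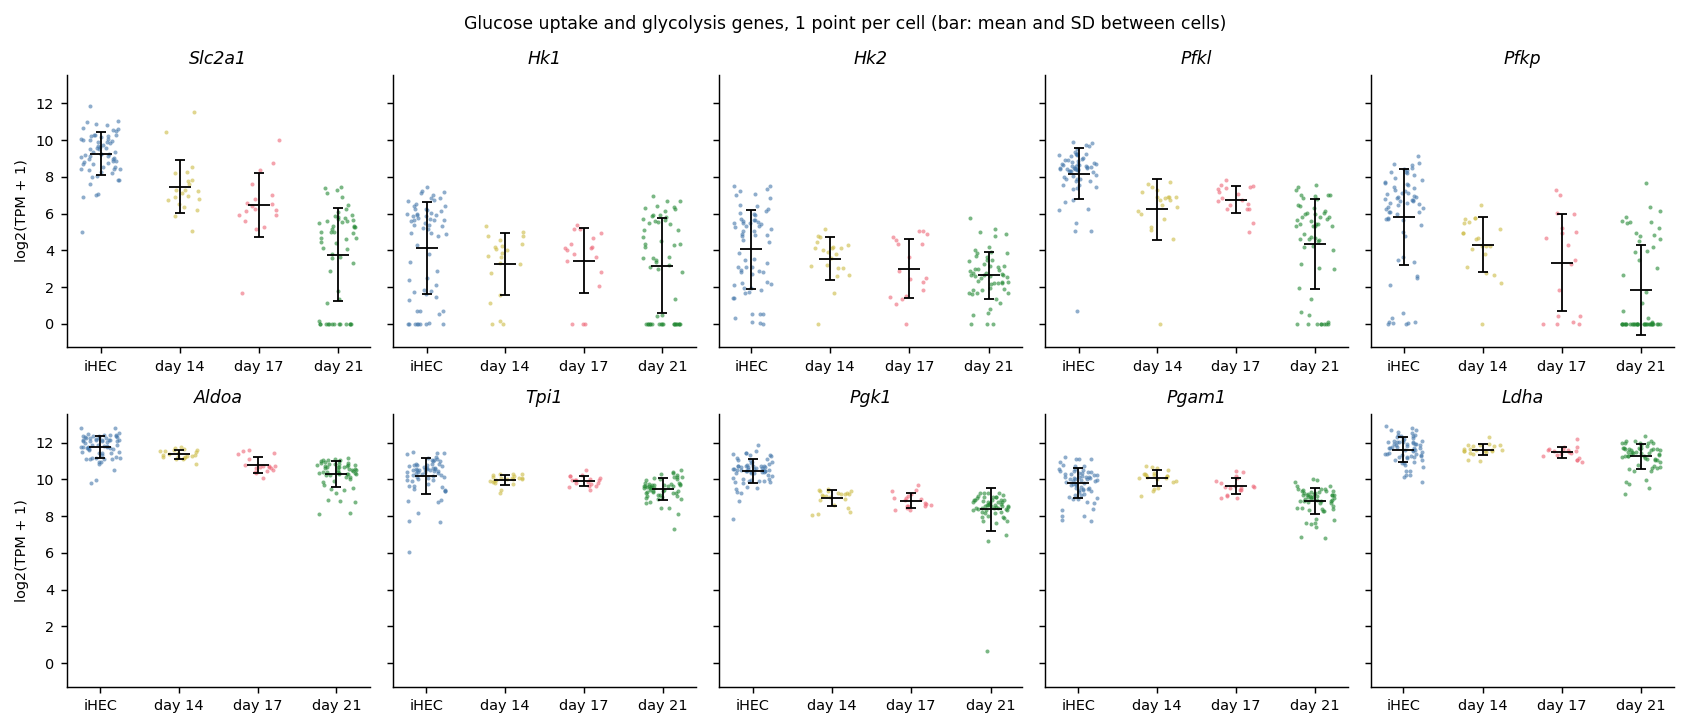
Level of each of the 10 genes, with log2(TPM + 1) on the vertical axis and the 4 groups on the horizontal axis. Each point is a cell and the bars give the mean and SD between cells. Slc2a1 steps down from a mean of 9.26 in iHECs to 3.76 on day 21, while Ldha stays between 11.27 and 11.63.

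Among themselves the 10 genes fell into a high and a low tier. Aldoa and Ldha were the most abundant in every group and stood above 99% of the tested genes, and they took 29.9% and 27.3% of the TPM of the 10 genes in iHECs. By day 21 the share of Ldha was 45.1% ± 8.15 (SD, n = 56) and that of Aldoa 23.7% ± 6.22. Tpi1, Pgk1 and Pgam1 were the next in every group, and all 5 of these abundant genes were above 1 TPM in every cell except for a single day-21 cell with Pgk1 at 0.561 TPM. Slc2a1 and the hexokinase and phosphofructokinase genes, which act at the entry and at the committed step, were lower in level and were the genes with values at or under 1 TPM in part of the cells. Among tested genes ranked by mean level, Slc2a1 stood at percentile 97.7 in iHECs and 60.4 on day 21, and Pfkp at 84.2 and 31.1.

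To show the regulatory sequence that these genes carry, the 250 bases before the RefSeq transcription start (build GRCm38.p6) are given for the members with the largest differences between iHECs and day 21, namely Slc2a1 (chr4:119108495-119108744, plus strand), Pfkp (chr13:6648772-6649021, minus strand), Pfkl (chr10:78009808-78010057, minus strand) and Pgk1 (chrX:106186850-106187099, plus strand), and for the members with the smallest, Ldha (chr7:46845554-46845803, plus strand) and Tpi1 (chr6:124814159-124814408, minus strand). Each is written 5' to 3' on the gene's strand, and capitals mark ACGTG or GCGTG, the core letters of HIF binding motifs, on either strand.
Slc2a1: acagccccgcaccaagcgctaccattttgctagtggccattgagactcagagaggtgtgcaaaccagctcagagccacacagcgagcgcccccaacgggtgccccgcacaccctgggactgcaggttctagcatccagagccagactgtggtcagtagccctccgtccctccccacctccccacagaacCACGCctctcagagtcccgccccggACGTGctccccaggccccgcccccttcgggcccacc
Pfkp: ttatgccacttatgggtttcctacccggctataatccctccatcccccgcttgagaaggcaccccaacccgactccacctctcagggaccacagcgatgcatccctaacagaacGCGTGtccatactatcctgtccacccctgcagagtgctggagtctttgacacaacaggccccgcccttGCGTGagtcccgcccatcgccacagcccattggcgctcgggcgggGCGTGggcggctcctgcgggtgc
Pfkl: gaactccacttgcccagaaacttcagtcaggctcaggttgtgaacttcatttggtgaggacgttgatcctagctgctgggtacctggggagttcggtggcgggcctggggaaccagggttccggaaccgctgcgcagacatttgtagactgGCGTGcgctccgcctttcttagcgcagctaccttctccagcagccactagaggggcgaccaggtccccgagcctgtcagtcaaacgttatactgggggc
Pgk1: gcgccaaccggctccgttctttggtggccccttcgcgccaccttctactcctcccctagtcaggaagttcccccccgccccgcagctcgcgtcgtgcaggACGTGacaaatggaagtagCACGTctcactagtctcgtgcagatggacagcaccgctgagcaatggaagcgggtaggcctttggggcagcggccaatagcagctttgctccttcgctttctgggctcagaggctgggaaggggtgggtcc
Ldha: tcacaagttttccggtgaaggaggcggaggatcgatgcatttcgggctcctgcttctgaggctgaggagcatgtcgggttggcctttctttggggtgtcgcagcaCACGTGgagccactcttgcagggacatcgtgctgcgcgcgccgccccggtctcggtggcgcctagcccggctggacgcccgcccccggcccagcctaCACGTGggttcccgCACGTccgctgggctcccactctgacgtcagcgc
Tpi1: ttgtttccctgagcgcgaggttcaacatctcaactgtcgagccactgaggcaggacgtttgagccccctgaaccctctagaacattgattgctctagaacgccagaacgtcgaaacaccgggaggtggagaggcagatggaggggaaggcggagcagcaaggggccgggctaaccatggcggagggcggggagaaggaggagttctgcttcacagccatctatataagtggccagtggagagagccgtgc
RefSeq gave 14 promoters for the 10 genes, since Hk1 and Ldha have 2 each and Aldoa has 3. ACGTG or GCGTG stood in 11 of these 14 promoters and in at least 1 promoter of 9 of the 10 genes, all but Tpi1, against 38.6% of the 32851 promoters of the same length. ACGTG alone stood in 7 of the 14, and in 6 of the 10 genes, against 16.6% of all promoters. Of the 3 Aldoa promoters, 2 overlap and hold the same site, which is counted in both. CACGTG, the E-box bound by Myc, contains ACGTG on both strands and stood in 1 of the 14, the Ldha promoter shown, against 6.02% of all promoters. The genes differ in GC content, from 58.4% in Tpi1 to 67.2% in Ldha among the promoters shown. These matches are a description of the letters, and their part in the level differences was not tested. The Ldha promoter shown had 5 positions and the Pfkl promoter 1. The 5 positions count both strands, so that each of the 2 CACGTG stretches counts on both.

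Slc2a1 (chr4:119108745-119137330), the main glucose transporter of many cell types, showed the largest difference of the 10 genes between iHECs and day 21, whereas Pfkl differed more in the first step. In iHECs the lowest, median and highest cell had 30.8, 615 and 3740 TPM, and all 65 cells were above 1 TPM. On day 14 these were 32.1, 149 and 2921 TPM, on day 17 2.22, 79.7 and 1024 TPM, and on day 21 0, 24.6 and 172 TPM. The groups overlapped at every step, but 19 of the 21 day-14 cells lay below the iHEC median, 14 of the 18 day-17 cells below the day-14 median, and 50 of the 56 day-21 cells below the day-17 median. The mean of log2(TPM + 1) was lower by 1.80, 0.99 and 2.70 in the 3 steps, and mean TPM was 22.5-fold higher in iHECs than on day 21. By day 21, 42 of the 56 cells were above 1 TPM (75%, exact Clopper-Pearson 95% interval 61.6% to 85.6%). The order of the levels was iHEC, day 14, day 17 and day 21, and only the neighbours day 14 and day 17 differed by less than 1 SD between cells, which was 1.44 and 1.73.

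Slc2a3 (GLUT3), a transporter with a high affinity for glucose, had an even higher level than Slc2a1 in iHECs, with a median of 1180 TPM and more TPM than Slc2a1 in 42 of the 65 cells. On day 14 its median was 8.17 TPM, and Slc2a1 exceeded it in 20 of the 21 cells. Slc2a1 made up 43.2% ± 23 (SD, n = 65 cells) of the summed TPM of both genes in an iHEC, 92.0% ± 12.8 (n = 21) on day 14, 80.1% ± 20.5 (n = 18) on day 17 and 73.4% ± 36.7 (n = 48 of 56 cells in which the sum was above 1 TPM) on day 21. The summed TPM of the pair was thus lower on day 14 through both genes, and through Slc2a3 by the larger part, with mean TPM of 1365 in iHECs and 16.9 on day 14. On day 21, 16 cells had Slc2a1 with Slc2a3 listed at 0 and 6 cells the reverse. Of the 13 other listed transporters of glucose or lactate and their chaperone, 5 were tested. On day 14, 2 of these 5 were higher and 3 lower by at least 1 than in iHECs, against 48% and 11.5% of all tested genes. The higher share was thus near that of all tested genes. Slc2a6, a transporter of the lysosomal membrane, was above 1 TPM in 1 iHEC, in 8 day-14 cells, in 0 day-17 cells (which allows up to 16.7%) and in 18 day-21 cells.

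The hexokinases Hk1 (chr10:62268855-62379920) and Hk2 (chr6:82725025-82774454) both bind mitochondria, Hk1 being the form of most resting tissues and Hk2 the inducible one. Both were low, and both had their highest mean in iHECs, where mean TPM was 3.15-fold that of day 14 for Hk1 and 2.76-fold for Hk2. Hk1 had a median of 39.8 TPM in iHECs, 13.6 on day 14, 15.7 on day 17 and 10.9 on day 21, with a lowest value of 0 in every group and highest values of 171, 38.4, 41.1 and 124 TPM. All 21 day-14 cells lay below the iHEC median. Hk2 had medians of 26.2, 13.9, 5.42 and 5.29 TPM in the same order, with a lowest value of 0 in every group and highest values of 183, 34.7, 32.5 and 52.7 TPM. The mean of log2(TPM + 1) on day 14 was lower than in iHECs by 0.86 for Hk1 and 0.50 for Hk2, against SDs between cells of 1.69 or more for Hk1 and 1.17 or more for Hk2. Between day 17 and day 21, Hk1 was lower by 0.27 on this scale, whereas its mean TPM was higher, at 26.8 against 16.2, and with a pseudocount of 10 the difference was 0.12. The 2 measures differ because 20 of the 56 day-21 cells were not above 1 TPM while others reached higher values than any day-17 cell.

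The mean share of Hk1 in the hexokinase pair differed between the groups by less than the spread between cells. Hk1 made up 52.6% ± 36.1 (SD, n = 62 cells with a sum above 1 TPM) of Hk1 plus Hk2 in iHECs, 46% ± 26.1 (n = 20) on day 14, 51% ± 32.8 (n = 18) on day 17 and 50.2% ± 41.2 (n = 55) on day 21. Hk1 was the higher of the pair in 34 of 62 iHECs (54.8%, exact 95% interval 41.7% to 67.5%), in 12 of the 20 day-14 cells, in 10 of the 18 day-17 cells and in 32 of the 55 day-21 cells (58.2%, 44.1% to 71.3%). On day 21, 17 cells had Hk2 with Hk1 listed at 0, against 7 iHECs. The choice of measure mattered on day 21, where Hk1 made up 76.5% of the TPM summed over the cells and 72.8% ± 29 in cells with a sum above 10 TPM. In the other groups these values lay between 48.4% and 61.1%.

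Phosphofructokinase was read from its liver form Pfkl (chr10:77986947-78009807) and its platelet form Pfkp (chr13:6579874-6649060). Pfkl had 0.611, 359 and 955 TPM in the lowest, median and highest iHEC, 0, 108 and 214 TPM on day 14, 30.9, 110 and 228 TPM on day 17, and 0, 39.3 and 189 TPM on day 21. All 21 day-14 cells lay below the iHEC median, 9 of the 18 day-17 cells were at or above the day-14 median, and 47 of the 56 day-21 cells lay below the day-17 median. On the log2(TPM + 1) scale Pfkl was lower by 1.94 on day 14 than in iHECs, higher by 0.53 on day 17 than on day 14, and lower by 2.41 on day 21 than on day 17. Day 14 and day 17 differed by less than the SD between day-14 cells, 1.65.

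Pfkp was lower than Pfkl in every group and had a median of 101 TPM in iHECs, 23.9 on day 14, 14.2 on day 17 and 0 on day 21, with a lowest value of 0 in every group and highest values of 562, 86.0, 153 and 205 TPM. It was above 1 TPM in 57 iHECs (87.7%, exact 95% interval 77.2% to 94.5%), 20 day-14 cells, 12 day-17 cells and 22 day-21 cells (39.3%, 26.5% to 53.2%). Its mean of log2(TPM + 1) was lower by 1.51, 0.97 and 1.51 in the 3 steps. The middle step became -1.67 with a pseudocount of 0.1, and the last -0.67 with a pseudocount of 10, so that both crossed the rule of size. In the middle step mean TPM was higher on day 17, at 31.8 against 27.7.

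Pfkl remained the larger part of the pair in each group. It made up 74.5% ± 19.4 (SD, n = 64 cells) in iHECs, 75.3% ± 17.7 (n = 20) on day 14, 82.3% ± 18.6 (n = 18) on day 17 and 75.7% ± 34.5 (n = 48) on day 21, and the means differed by less than 1 SD. Cells with more Pfkp than Pfkl numbered 5 among these iHECs, 1 on day 14, 0 on day 17 (which allows up to 16.7%) and 13 on day 21. On day 21, 20 cells had Pfkl with Pfkp listed at 0, against 2 iHECs, and 19 of the 56 cells had both genes above 1 TPM, against 57 of the 65 iHECs. The muscle form Pfkm had the lowest mean of the family in every group, at 1.23 in iHECs and 3.14, 2.93 and 1.15 on the later days on the log2(TPM + 1) scale. It was above 1 TPM in 15 of the 65 iHECs, 16 of the 21 day-14, 12 of the 18 day-17 and 16 of the 56 day-21 cells.

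**Figure D2:**
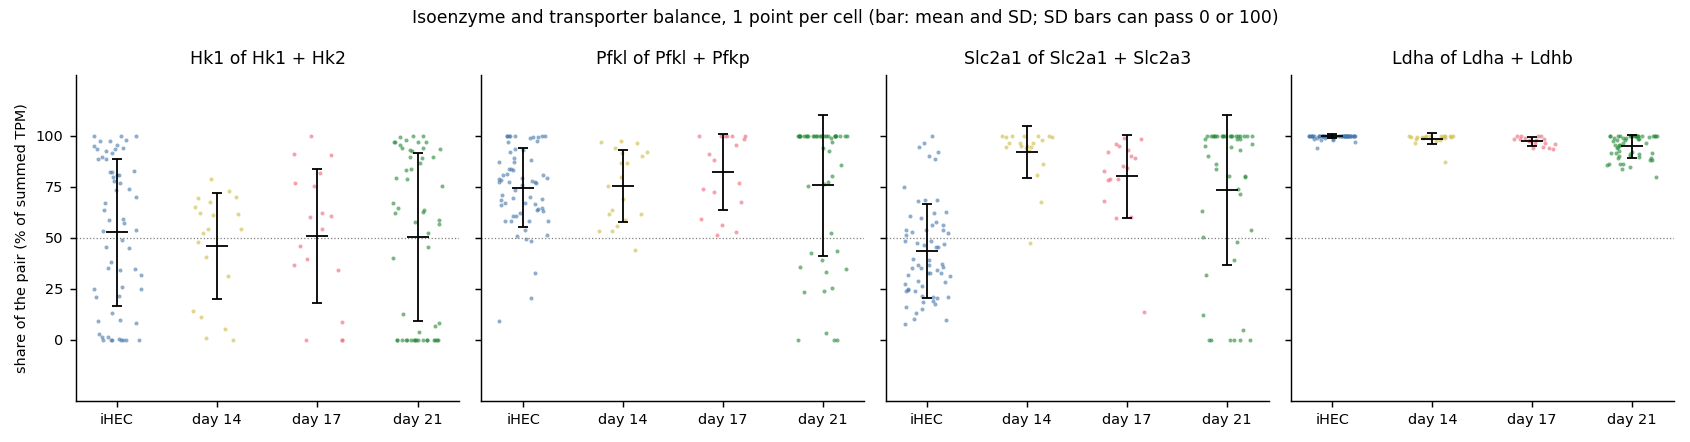
Share of the first gene in the summed TPM of a pair, in percent, for 4 pairs of related genes and by group. Points are cells with a sum above 1 TPM, bars are the mean and SD, and the dotted line marks 50%. Slc2a1 moves from a mean of 43.2% of Slc2a1 plus Slc2a3 in iHECs to 92.0% on day 14, while the Hk1 mean stays between 46% and 52.6% with points at both ends.

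Aldoa (chr7:126795234-126800994), the aldolase of muscle and most other cells, was lower at each step and had no cell at or near 0. The lowest, median and highest cell had 881, 3698 and 7158 TPM in iHECs, 1809, 2622 and 3467 TPM on day 14, 1064, 1673 and 3087 TPM on day 17, and 279, 1427 and 2341 TPM on day 21. All 21 day-14 cells and all 56 day-21 cells lay below the iHEC median. Its mean of log2(TPM + 1) was lower by 0.40, 0.57 and 0.49 in the 3 steps, and mean TPM was 2.72-fold higher in iHECs than on day 21. Tpi1 (chr6:124810586-124814158), which interconverts the triose phosphates, had medians of 1395, 1053, 1000.2 and 765 TPM, with single cells from 64.3 to 2946 TPM in iHECs and from 156 to 1441 TPM on day 21. It was lower by 0.21, 0.06 and 0.44 on the log2(TPM + 1) scale, each less than the larger of the SDs of the groups compared.

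Pgk1 (chrX:106187100-106203699), the first ATP-forming enzyme of the pathway, took most of its difference in a single step. In iHECs it had 233, 1477 and 3754 TPM in the lowest, median and highest cell, and on day 14 it had 262, 579 and 706 TPM. All 21 day-14 cells lay below the iHEC median, and the mean of log2(TPM + 1) was lower by 1.48, with SDs of 0.68 and 0.44. The later medians were 447 TPM on day 17 and 379 TPM on day 21, and the step of 0.14 was smaller than the spread between cells, while that of 0.47 lay between the SDs of 0.39 on day 17 and 1.18 on day 21. Pgam1 (chr19:41911871-41918665), a phosphoglycerate mutase, had 214, 991 and 2353 TPM in iHECs and 556, 1151 and 1719 TPM on day 14, where 15 of 21 cells were at or above the iHEC median. It was then lower, with medians of 776 TPM on day 17 and 522 TPM on day 21, and 51 of the 56 day-21 cells lay below the day-17 median, a step of 0.80 against SDs of 0.44 and 0.71. Stretches of 50 bases shared with transcripts of other genes, here processed pseudogenes, made up 68.0% of the Pgk1 transcript and 41.5% of that of Pgam1. The shared part, with pseudogenes or other genes, was 16.6% for Ldha, 13.5% for Aldoa, 7.51% for Tpi1, 0.0543% for Pfkl and 0% for Slc2a1, Hk1, Hk2 and Pfkp. How reads that fit several of these copies were counted is not given in the sources used here, so the levels of Pgk1 and Pgam1 are uncertain to that degree.

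Ldha (chr7:46842274-46855627), which regenerates NAD+ by reducing pyruvate to lactate, was close to level across the groups. The lowest, median and highest cell had 925, 3354 and 7651 TPM in iHECs, 2043, 3166 and 5120 TPM on day 14, 1978, 2954 and 4756 TPM on day 17, and 597, 2789 and 5246 TPM on day 21. The groups overlapped over most of their range, and the mean of log2(TPM + 1) was 11.63, 11.63, 11.48 and 11.27, each step being smaller than the spread between cells. Relative to the median of all tested genes, Ldha was lower by 0.92 on day 14 than in iHECs and higher by 0.54 on day 21 than on day 17. Ldhb, the subunit that favors the return of lactate to pyruvate, was above 1 TPM in 9 iHECs, 15 day-14, 17 day-17 and 40 day-21 cells. Its median was 0, 17.9, 59.6 and 76.1 TPM, and Ldha remained 99.7% ± 0.92, 98.6% ± 2.79, 97.3% ± 2.14 and 94.8% ± 5.55 of the summed TPM of both genes.

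The lactate exporters differed in a way of their own. Slc16a3 (MCT4), the exporter of highly glycolytic cells, had a median of 78.7 TPM in iHECs, 1.55 on day 14, 5.31 on day 17 and 0 on day 21. Slc16a1 (MCT1), which carries lactate in both directions, had medians of 0.581, 53.4, 72.1 and 34.5 TPM. Slc16a1 was the higher of the pair in 12 of the 54 iHECs with a sum above 1 TPM (22.2%, exact 95% interval 12% to 35.6%), in 18 day-14 cells, in 16 day-17 cells and in 48 of the 50 such day-21 cells. Their shared chaperone Bsg was lower by 1.43 on the log2(TPM + 1) scale on day 14 than in iHECs, with medians of 1531 and 585 TPM.

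The remaining enzymes of the pathway were split in the first step. Of 18 other glycolysis genes, 9 were tested, and on day 14 5 were higher by at least 1 than in iHECs and 1 was lower, shares near the 48% and 11.5% of all tested genes. Their median difference was 1.65. The 5 were Gapdh and the less abundant Pfkm, Bpgm, Eno3 and Ldhb, whereas Gpi1 (-0.04), Pkm (-0.14) and Eno1 (0.14) were, like the 10 genes in their median, below the median of all tested genes. Gapdh, the step between Tpi1 and Pgk1, was higher by 1.65, with medians of 141 TPM in iHECs and 459, 348 and 356 TPM on the later days. Libraries had been picked by a quantitative PCR of Gapdh and B2m, and 82.5% of the Gapdh transcript was shared with other genes' transcripts, 213 of them pseudogenes, so its level is the least certain of the 16 genes searched for such copies. Eno1, the main enolase, had medians of 4804, 4951, 2538 and 1606 TPM, although 72.2% of its transcript was shared, mostly with its near copy Eno1b. Pkm, the pyruvate kinase of most tissues, had medians of 2691, 2182, 1970 and 1337 TPM, and Gpi1, the isomerase between hexokinase and phosphofructokinase, had 486, 459, 367 and 244 TPM. Eno3, the muscle enolase, was above 1 TPM in 2 iHECs, 12 day-14, 17 day-17 and 27 day-21 cells. The isoforms Aldoc and Eno2 stayed minor, since Aldoa was 98.5% or more and Eno1 99.0% or more of its pair in the mean of each group.

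**Figure D3:**
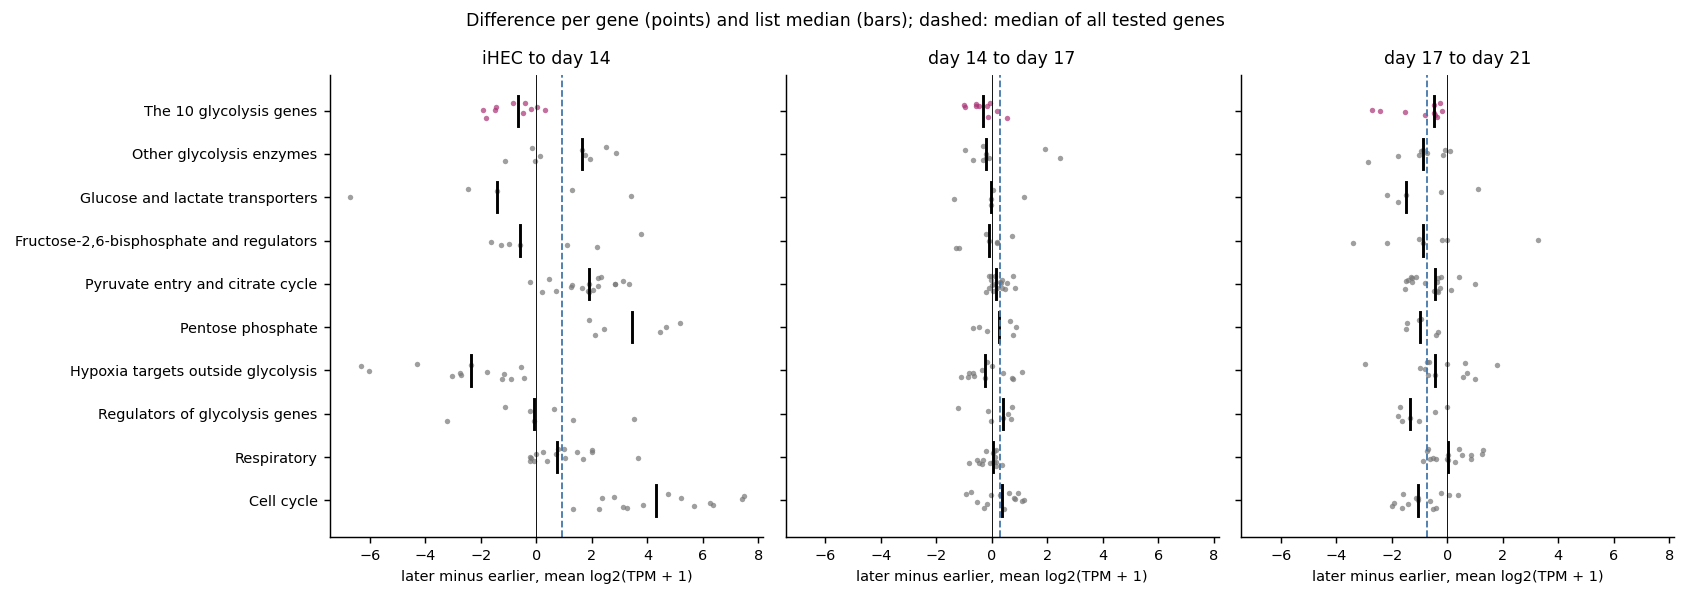
Difference in mean log2(TPM + 1), later minus earlier group, for the 10 genes and for 9 companion lists in the 3 comparisons. Points are tested genes, black bars the list medians, and the dashed line the median of all tested genes. From iHEC to day 14 the median of the 10 genes is -0.68 and that of the hypoxia targets -2.35, left of the dashed line at 0.93, while the pentose phosphate genes have a median of 3.44.

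Genes around the pathway differed in direction in the first step, in which 48% of all tested genes were higher and 11.5% lower by at least 1. All 6 tested pentose phosphate genes, which draw glucose 6-phosphate away from glycolysis to make NADPH and ribose, were higher by at least 1 on day 14 than in iHECs, with a median difference of 3.44. G6pdx, the first enzyme of that branch, had a median of 0.332 TPM in iHECs and 246, 122 and 87.2 TPM on day 14, day 17 and day 21. Of 18 genes of pyruvate entry and the citrate cycle, 14 were higher by at least 1 and 0 lower, with a median of 1.89, and the citrate synthase gene Cs was higher by 3.11. Of 16 respiratory chain genes, 6 were higher and 0 lower, with a median of 0.74, so that both this share and this median were below those of all tested genes. Of 7 tested genes of fructose 2,6-bisphosphate and the pyruvate dehydrogenase switch, 3 were higher and 2 lower by at least 1, a higher share near that of all tested genes. Among the kinases that close pyruvate dehydrogenase, Pdk1 was lower by 1.62 and Pdk3 higher by 3.75 on day 14 than in iHECs. All 14 cell cycle genes were higher by at least 1, with a median of 4.30.

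Hypoxia targets outside glycolysis had their highest levels in iHECs. Of 13 tested, 10 were lower by at least 1 on day 14 and 0 were higher, with a median difference of -2.35. Of all tested genes, 11.5% were lower and 48% higher by at least 1 in this step. Bnip3, a mitophagy receptor, had a median of 1796 TPM in iHECs and 27.6, 15.6 and 3.20 TPM on day 14, day 17 and day 21. Adm, the peptide adrenomedullin, was above 1 TPM in 52 iHECs and, like Cdh5, in 0 cells of each iHPC group. Adm is also known as a product of endothelial cells, and the 8 endothelial markers were all lower by at least 1 on day 14. The part of the cell type in the differences of the hypoxia targets was not tested. Of 7 tested regulators of glycolysis genes, 2 were higher and 2 lower by at least 1, a higher share below and a lower share above those of all tested genes. Among them, Epas1 (HIF-2α), which is known to be expressed in endothelium, was above 1 TPM in 44 iHECs and in 1 of the iHPCs. Hif1a was near level, with means of 4.87 ± 2.60, 4.64 ± 1.16, 4.6 ± 1.67 and 4.17 ± 2.04 on the log2(TPM + 1) scale. Myc was higher by 3.52 on day 14 than in iHECs and then lower by 1.21 and 1.0, with medians of 43.9, 307, 180 and 100.2 TPM.

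From day 14 to day 17, where 15.5% of all tested genes were higher and 3.89% lower by at least 1, 2 of 9 other glycolysis enzymes (Eno3 and Ldhb) were higher by that much, a share near that of all tested genes, 0 of 18 citrate cycle genes and 0 of 6 pentose phosphate genes were past it, and 1 hypoxia target (P4ha1) was higher and 1 (Egln3) lower. From day 17 to day 21, 3 of 9 other glycolysis enzymes, 7 of 18 citrate cycle genes and 3 of 6 pentose phosphate genes were lower by at least 1, against the 38.5% of all tested genes. Of 16 respiratory chain genes, 0 were lower and 2 higher, with a median of 0.03 against -0.74 for all tested genes. Of 13 hypoxia targets, 1 was lower and 1 higher, and of 14 cell cycle genes, 8 were lower and 0 higher. Of 5 transporters and of 7 genes of fructose 2,6-bisphosphate and its regulators, 3 each were lower and 1 each higher. Of the 7 regulators, 5 were lower by at least 1 and 0 higher in this step, against 38.5% and 2.33% of all tested genes. Myc, at -1.003, was among the 5 and lay at the edge of the rule. Pdk1 was lower by 3.38 in this step, from a median of 32 TPM to 0. The gluconeogenic Fbp1 and Fbp2, whose enzyme opposes phosphofructokinase, were above 1 TPM in 25 and 29 of the 56 day-21 cells and in 0 of the 18 day-17 cells, which allows up to 16.7%. Fbp2 was not confined to day 21, with a mean TPM of 4.80 in iHECs, 73.2 on day 14 and 96.2 on day 21. Its means of log2(TPM + 1) were 0.13, 1.21 and 3.30 in these groups. The mean TPM of Fbp1 was 0 in iHECs, 1.02 on day 14 and 52.5 on day 21. Markers of other blood cells moved with the groups. The 8 neutrophil or monocyte markers had a mean of log2(TPM + 1) of 0.23 in iHECs, 2.86 on day 14, 1.68 on day 17 and 0.25 on day 21, with at most 4062, 1857, 8613 and 1292 TPM summed in a cell and with S100a9 at 0 in the median of every group. The 8 T lymphoid markers had means of 0.28, 0.57, 3.02 and 2.98, and at most 248, 120, 2047 and 5093 TPM in a cell. The 6 innate lymphoid markers had means of 0.01, 0.19, 0.86 and 2.02, and at most 12.5, 95.4, 144 and 14760 TPM. The 8 mast cell or basophil markers summed to between 83.8 and 100228 TPM in a day-21 cell, against at most 165 TPM on day 17, with Tpsb2 at 0 in every cell and Cpa3 at a median of 1417 TPM, and their part in the differences was not tested.

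Within each group, the number of genes detected in a cell moved with the level of the 10 genes. Genes above 1 TPM numbered a median of 4926 per iHEC, 8200 per day-14, 8101 per day-17 and 6695.5 per day-21 cell, so that iHECs had the fewest genes detected and the highest mean of the 10 genes. Among the iHPC groups, both were highest on day 14 and lowest on day 21, and within each group their correlation was positive. Across cells, the mean of the 10 genes and the number of detected genes had a Pearson's r of 0.32 (Spearman's rho 0.30) in iHECs, 0.82 (0.56) on day 14, 0.72 (0.65) on day 17 and 0.80 (0.70) on day 21, over all cells of the group, values that share the library and its unknown depth. The day-14 cells included 1 with 3103 detected genes, far below the median of that group. In the 140 cells with at least 4000 detected genes, the steps of the 10-gene mean were -0.90, -0.40 and -0.89.

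**Figure D4:**
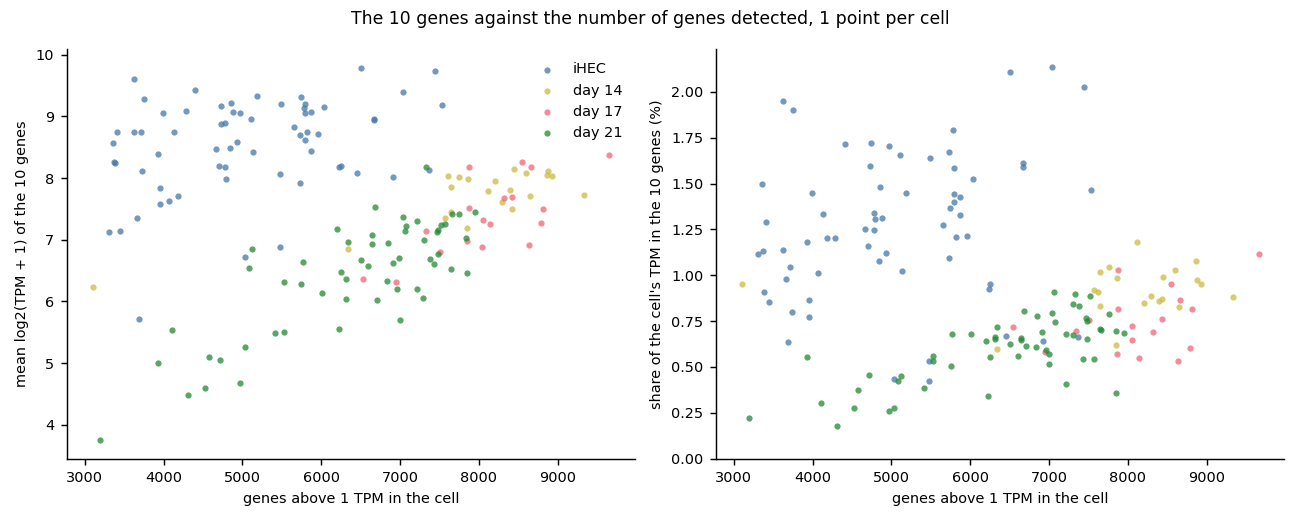
Mean log2(TPM + 1) of the 10 genes (left) and their share of the cell's TPM in percent (right) against the number of genes above 1 TPM in the cell. Each point is a cell, colored by group. Most iHECs lie at the top, with a median of 4926 detected genes, and within the day-21 cells the mean follows the number of detected genes, with r = 0.80.

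Within a group the members followed each other loosely. The median Pearson's r over the 45 pairs of members was 0.27 in iHECs, 0.17 on day 14, 0.27 on day 17 and 0.35 on day 21, and all of these share the cell's library. The highest pair was Aldoa with Ldha in iHECs (r = 0.66, n = 65) and Aldoa with Pgam1 on day 21 (r = 0.68, n = 56). The isoenzymes of a pair were not inversely related in iHECs, with r = 0.09 for Hk1 with Hk2 and 0.22 for Pfkl with Pfkp, and on day 21 the values were 0.13 and -0.03. In iHECs, the mean of the 10 genes had an r of 0.55 (Spearman's rho 0.47) with the mean of the hypoxia targets. The values were 0.56 (0.33) on day 14, 0.46 (0.47) on day 17 and 0.65 (0.70) on day 21. They share the library too, and those of day 14 include the cell with 3103 detected genes. The correlation with the hypoxia targets was not among those planned. With the mean of the cell cycle genes the r was 0.17 (rho 0.10) in iHECs, 0.71 (0.81) on day 14, 0.34 (0.28) on day 17 and 0.09 (0.15) on day 21. With the mean of the respiratory chain genes the r was 0.06 (rho 0.05) in iHECs and 0.53 (-0.20) on day 14. It was -0.54 (-0.47) on day 17 and 0.10 (-0.10) on day 21, so that its sign differed between groups. After each group's mean was subtracted, the tested genes most like the 10-gene mean over the 160 cells were Pkm (r = 0.64) and Gpi1 (r = 0.60), of 9664 genes outside the 10. Slc38a10, an amino acid transporter, and Coro1c, an actin-binding coronin, followed with r = 0.55 and 0.52, and the fifth was a row whose gene name had been turned into a date.

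On day 21 the isoenzymes also differed between cells with and without Gata2, a hematopoietic transcription factor that is known in mast cells. Gata2 was above 1 TPM in 34 of the 56 cells. It was listed at 0 in 15 cells, lay above 0 and up to 1 TPM in 7 and above 1 and up to 3 TPM in 9, so that the line at 1 TPM runs through a range of low values. Hk1 had a median of 38.6 TPM (range 0 to 124) in cells with Gata2 and of 0 TPM (0 to 43.3) in cells without, and was above 1 TPM in 28 of 34 (82.4%, exact 95% interval 65.5% to 93.2%) and 8 of 22 cells (36.4%, 17.2% to 59.3%). Hk2 was above 1 TPM in 31 of 34 and 19 of 22 cells. Hk1 made up 64.2% ± 36.2 (SD, n = 34) of the hexokinase pair in cells with Gata2 and 27.6% ± 39.4 (n = 21) in cells without. Pfkp was above 1 TPM in 18 of 34 and 4 of 22 cells, and Pfkl made up 64.6% ± 38 (n = 30) and 94.2% ± 15.8 (n = 18) of its pair.

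All members, Hk1 and Pfkp among them, had overlapping ranges in these cells. The mean of log2(TPM + 1) over the 10 genes was 6.65 ± 0.83 in cells with Gata2 and 6.03 ± 0.88 in cells without. Slc2a1 had medians of 24.1 TPM in cells with Gata2 and 30.8 TPM in cells without, Pfkl 33.8 and 44.7 TPM, and Tpi1 753 and 767 TPM. Ldha was higher by 0.58 on the log2(TPM + 1) scale in cells with Gata2, with SDs of 0.48 and 0.80 and medians of 3075 and 2248 TPM. Ldhb was lower in them, with medians of 8.47 and 165 TPM, and was above 1 TPM in 19 of 34 and 21 of 22 cells. Eno2, the enolase of neurons, was above 1 TPM in 15 of 34 and 1 of 22 cells. The hypoxia target P4ha2, a collagen prolyl hydroxylase subunit, was above 1 TPM in 20 of 34 and in 0 of 22 cells, which allows up to 13.6%. Mast cell markers moved with Gata2, with a median sum of 37019 TPM over the 8 genes in cells with Gata2 and of 1002 TPM in cells without, and the number of detected genes had medians of 6934.5 and 6455. The part of either in these differences was not tested.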

How the data were processed

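RNA of 160 sorted single mouse cells had been amplified with the Discover-sc WTA kit and made into libraries with the TruePrep kit, after a quantitative PCR check of B2m and Gapdh. Per the labels and the submitters' processing notes, HISAT2 2.1.0, SAMtools 0.1.19 and StringTie 1.3.4 were used with mm10. The deposited values were TPM per cell, summing to between 988686 and 999108, and keep no read depth.

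Values were analysed as log2(TPM + 1) in Python 3.11.15, on all cells and without a doublet caller, and the steps were tested on simulated data. A difference of 1 between group means was the rule of size. Exact Clopper-Pearson 95% intervals, and the limit of 3 cells beside a count of 0, cover counting error only. The 10 genes and the companion and marker lists were chosen with earlier results of these data known. Up to 4 genes with the largest difference in each companion list, and partners of pairs, were to be named, as were the 5 genes most like the 10-gene mean. Slc2a6, Gpi1, Gapdh, Pkm, Hif1a, Fbp1, Egln3, P4ha2 and Gata2 were outside the list rule and were named after their values were seen. Shared stretches of 50 bases were counted on GENCODE M21 transcripts. Protein sequences were not analysed here. Alternatives changed the pseudocount (0.1 and 10), the scaling, the cells, the low-value filter and the threshold (10 TPM).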

Additional observations from a re-analysis of the deposited data

How the results depend on the processing

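The directions of the 10-gene mean, -0.84, -0.32 and -0.96 in the 3 steps, held under all 7 alternatives tried. With size factors from the median of ratios over 467 genes they were -1.0, -0.15 and -0.99, with a pseudocount of 0.1 -0.83, -0.40 and -1.27, with one of 10 -0.79, -0.22 and -0.64, and with the median over cells -0.91, -0.51 and -0.70. By the percentile of each gene within its cell the steps were -8.17, -3.65 and -3.85 percentile points. Leaving out the 5 cells whose Ptprc value went against their gate, an alternative chosen after seeing the data, gave -0.86, -0.35 and -0.92. The median difference of all tested genes moved more, and from iHECs to day 14 it was 1.83 with a pseudocount of 0.1, 0.21 with one of 10 and 0.80 with size factors, against 0.93. Single genes with a small difference turned in sign in 6 cases. Ldha on day 14 against iHECs was 0.00 and became -0.16 with size factors and -0.09 in cells with at least 4000 genes. With size factors, Tpi1, Pgk1 and Ldha on day 17 against day 14 became 0.12, 0.04 and 0.02. Hk1 on day 21 against day 17 became 0.12 with a pseudocount of 10. The rule of size was crossed in 5 cases, by Slc2a1 (-1.02) and Pfkp (-1.67) on day 17 with a pseudocount of 0.1, by Pfkp (-1.19) on day 17 and Hk1 (-1.16) on day 14 in cells with at least 4000 genes, and by Pfkp (-0.67) on day 21 with a pseudocount of 10. Without a filter on low values, the counts of genes past the rule of size stayed within 1.5 times. Raising the detection threshold to 10 TPM moved 6 of the 40 shares of cells beyond their interval. With 1 sample per group and unknown depth, none of these values has a replicate check. No paired analysis was possible because the cell numbers in the labels name cells and no result comes from a test.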
